A study of Arabidopsis thaliana with 12 samples.

Results

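BRM (AT2G46020) encodes BRAHMA, a DNA-dependent ATPase of the SWI/SNF chromatin remodeling complexes of Arabidopsis, and brm-1 is a mutant allele of this gene, the only one in the series. SWI/SNF complexes use the energy of ATP hydrolysis to slide or evict nucleosomes, which opens or closes regulatory DNA, so that loss of the ATPase can raise some transcripts and lower others. BRM-containing complexes also hold bromodomain proteins, among them BRD1, BRD2 and BRD13, which were intact in this single mutant. Plants without BRM are known for reduced stature, altered leaf development and altered responses to hormones and to day length. Here the transcripts of brm-1 seedlings are set against those of WT seedlings.

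The members are the gene records of the deposited Cuffdiff gene test table for this pair of genotypes that carry the status OK, 19154 of 31837 records in all. RNA came from whole seedlings of the Col-0 ecotype, 14 days old and grown in long days, with 3 libraries for brm-1 and 3 for WT among 12 libraries of 4 genotypes. The other genotypes were brd1,2,13, which carries mutations in all 3 bromodomain genes, and brm-1 brd1,2,13, which joins both lesions (the combined mutant). All 4 genotypes share the ecotype, the age and the day length, and the labels do not say whether the 3 libraries of a genotype came from separate plantings. The table gives 1 value per genotype, in FPKM (fragments per kilobase of transcript, scaled to the mapped fragments of the library), computed by the authors over the 3 libraries. Replicate error and library depth cannot be computed from these values, the test columns of the authors' own run were not used, and every difference given here is a description of these values. In whole seedlings, fewer cells of a type and less RNA per cell cannot be told apart.

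A record was compared when both genotypes were above 0 and the higher of the values was at least 1 FPKM, which left 17942 records. Of these, 15986 held 1 gene, 1883 joined several genes and 73 had no gene name. In brm-1, 1195 records were at least 2-fold higher than in WT, which is 6.66% of those compared, and 1008 were at least 2-fold lower, which is 5.62%. At least 4-fold apart were 386 records that were higher, 2.15% of those compared, and 223 that were lower, 1.24%. The remaining 15739 records, 87.7% of all compared, lay within 2-fold. By any amount, 8909 of the 17942 records were above WT, which is 49.7%, and 9033 were below it. These shares are the background for counts of group members above or below WT given later. For members at least 2-fold apart the background is 6.66% higher and 5.62% lower. The median log2 ratio of brm-1 over WT was 0.00 over all compared records, with the 5th percentile at -1.07 and the 95th at 1.23. FPKM summed to 934002 in brm-1 and 953230 in WT. Another 48 records with status OK were listed at 0 in 1 of the genotypes, 10 in brm-1 and 38 in WT, and 1164 were under the minimum in both. Of the compared records, 5811 lay on a locus that overlaps another record, and reads there may be divided between genes, so values of such genes are less certain. Among the genes named below these are ADH1, AT4G10270, AT4G34810, BCAT2, CAB3, CLF, COI1, COL2, CRK29, CSD1, DELTA-TIP, DIN10, EDS5, F3H, FER1, FLS2, FRK1, GDH1, HRA1, IAA5, ICS2, JAZ12, LEA7, LHB1B2, MCCA, MT2B, NPR1, NRT1.8, PDC1, RING1B, RLP42, SARD1, SMZ, SPL3, SPL15, SWI3C, SYD, TOC1, TT4, UGT75C1, WRKY33 and XTH24, beside those for which the overlap is given in place. Chloroplast and mitochondrial genes were not measured, since all 271 annotated organelle records stand at 0 in every genotype.

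**Figure D1:**
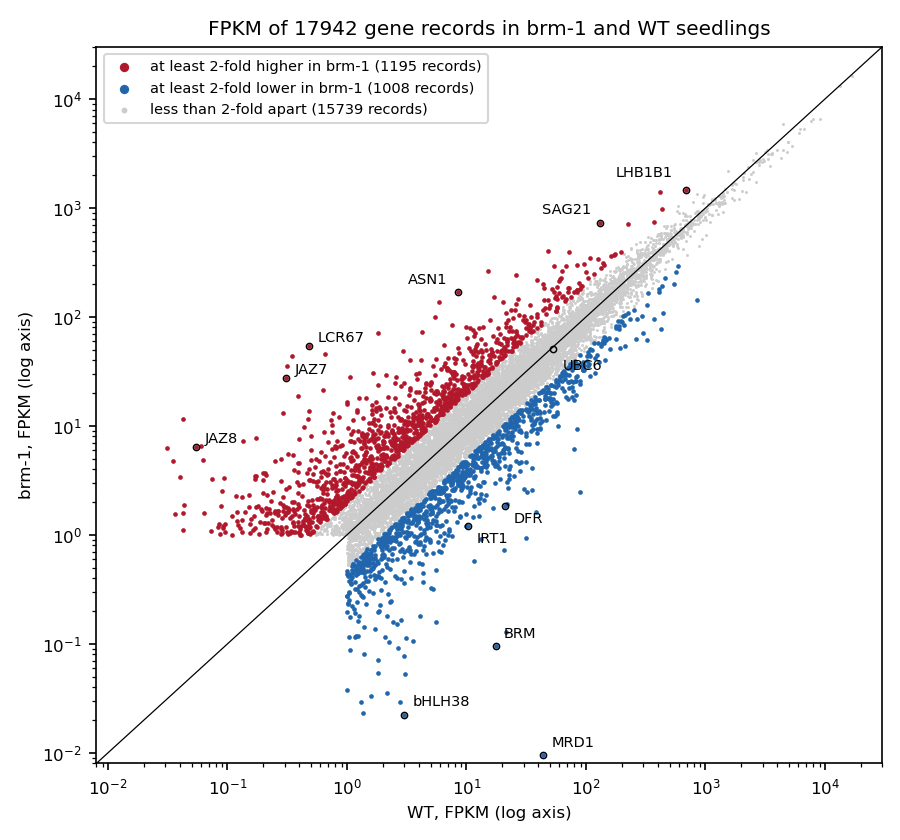
Each point is 1 of 17942 gene records, with its FPKM in brm-1 on the vertical axis and in WT on the horizontal axis, both logarithmic; red points are at least 2-fold higher in brm-1, blue points at least 2-fold lower and grey points less than 2-fold apart. Circled genes are named in the text: MRD1 and BRM lie far below the diagonal of equal values, JAZ8 and JAZ7 far above it, and UBC6, which shares the BRM locus, lies near it.

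The mutated gene itself was close to 0 in the library group labelled brm-1. BRM stood at 0.0954 FPKM in brm-1, against 17.5 FPKM in WT, which is 183-fold lower. Its locus overlaps that of UBC6, a ubiquitin-conjugating enzyme gene on the same stretch of chromosome 2, and UBC6 stood at 50.4 FPKM in brm-1, against 52.5 FPKM in WT. BRM was as low in the combined mutant, at 0.120 FPKM, and stood at 18.5 FPKM in brd1,2,13. Of the bromodomain genes, BRD2 was 3.2-fold higher, with 22.5 FPKM in brm-1 against 7.04 FPKM in WT. BRD1 had 15.7 FPKM in brm-1 against 12.7 FPKM in WT, and BRD13 had 18.7 FPKM in brm-1 against 14.4 FPKM in WT, both less than 2-fold apart. Among the 13 compared genes for SWI/SNF subunits, BRD2 was the member at least 2-fold apart, and the other 12, among them the ATPase gene SYD with 9.30 FPKM in brm-1 against 9.85 FPKM in WT in the higher of its 2 records and the core subunit gene SWI3C with 14.6 FPKM in brm-1 against 17.9 FPKM in WT, lay within 2-fold. None of the 9 compared remodeler genes outside SWI/SNF, such as INO80, PKL and DDM1, was 2-fold apart. In the Polycomb and Trithorax group, 2 of 17 genes were at least 2-fold higher, beside 6.66% of all records, too few to set the group apart. These were ULT1, a SAND-domain antagonist of Polycomb silencing, with 13.4 FPKM in brm-1 against 6.16 FPKM in WT, and RING1B, a Polycomb RING-finger protein, with 7.69 FPKM in brm-1 against 3.84 FPKM in WT. RING1B lay at the edge of the 2-fold cut. Of the 9 members on a locus free of overlap, 1 was at least 2-fold higher. CLF, the H3K27 methyltransferase of leaves, had 8.23 FPKM in brm-1 against 8.34 FPKM in WT, and REF6, an H3K27 demethylase, had 7.76 FPKM in brm-1 against 8.29 FPKM in WT.

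The 25 largest ratios among genes of at least 5 FPKM in the higher genotype belonged to genes of mixed function, some of which follow. Highest of all was AT3G22275, a gene of chromosome 3 annotated as a jasmonate ZIM-domain protein, with 11.6 FPKM in brm-1 against 0.0420 FPKM in WT, a 277-fold difference. LCR67, which encodes the plant defensin PDF1.1, had 53.6 FPKM in brm-1 against 0.481 FPKM in WT. Genes for late embryogenesis abundant proteins, which protect drying seeds and stressed cells, were among them, with LEA7 at 45.4 FPKM in brm-1 against 0.658 FPKM in WT and AT3G02480 at 70.9 FPKM in brm-1 against 1.83 FPKM in WT. None of these stood above 2 FPKM in WT, so each was low or nearly absent there. TSPO responds to abscisic acid and is annotated as similar to an outer membrane tryptophan-rich sensory protein. It had 6.31 FPKM in brm-1 against 0.0311 FPKM in WT on a locus that overlaps other records. LTP3 and LTP4 encode secreted lipid transfer proteins: LTP3 had 73.4 FPKM in brm-1 against 4.28 FPKM in WT, and LTP4 had 21.5 FPKM in brm-1 against 0.630 FPKM in WT. The pair of wound-responsive family genes AT4G10265 and AT4G10270 had 43.6 FPKM in brm-1 against 0.349 FPKM in WT for the first gene and 100.3 FPKM in brm-1 against 5.47 FPKM in WT for the second. ASN1, a glutamine-dependent asparagine synthetase that is switched on in the dark, had 169 FPKM in brm-1 against 8.54 FPKM in WT, and NRT1.8, a nitrate transporter gene, had 9.79 FPKM in brm-1 against 0.433 FPKM in WT. MIOX4, which opens the ring of myo-inositol, had 7.22 FPKM in brm-1 against 0.134 FPKM in WT. CAT3 is uncertain: its record had 35.4 FPKM in brm-1 against 0.316 FPKM in WT, while a second record on the same locus, the joined record CAT3/CAT1 of these catalase genes, had 1398 FPKM in brm-1 against 418 FPKM in WT.

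At the other end of the range, MRD1 (AT1G53480) had 0.00948 FPKM in brm-1 against 44.0 FPKM in WT, and it was listed at 0 in brd1,2,13 and at 0.140 FPKM in the combined mutant, so that it was near 0 in each of the mutant genotypes. Its locus overlaps those of HEI10, a meiotic recombination gene with 1.28 FPKM in brm-1 against 5.18 FPKM in WT, and MUM4, a rhamnose synthase gene with 27.2 FPKM in brm-1 against 38.7 FPKM in WT. AT1G13609, a defensin-like gene, had 0.129 FPKM in brm-1 against 21.5 FPKM in WT in the higher of its 2 overlapping records. Several of the lowest ratios belonged to small proteins that the annotation leaves uncharacterized, among them AT2G30766, whose locus overlaps another record, with 2.49 FPKM in brm-1 against 89.2 FPKM in WT, AT1G47395 with 0.935 FPKM in brm-1 against 31.4 FPKM in WT and AT1G47400 with 0.724 FPKM in brm-1 against 20.5 FPKM in WT. The annotation gives these no function, and nothing is assumed of them here. AMT1;2, an ammonium transporter of roots, had 9.44 FPKM in brm-1 against 84.0 FPKM in WT. HOL2, a methyltransferase gene, had 1.91 FPKM in brm-1 against 21.8 FPKM in WT, and the glutaredoxin family gene AT2G47880 had 2.64 FPKM in brm-1 against 30.4 FPKM in WT. Among the 7 records at 1 FPKM or more in WT and listed at 0 in brm-1 were BHLH100, a regulator of iron uptake at 4.49 FPKM in WT, and CLE14, a signalling peptide gene at 3.81 FPKM in WT. The 16 records of the reverse kind included CLE40, a root peptide gene at 4.66 FPKM in brm-1, and LEA18 at 2.46 FPKM in brm-1. They also included RRTF1, a redox-responsive factor at 1.32 FPKM in brm-1, on a locus that overlaps another record.

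Jasmonate is a lipid-derived hormone of wounding and defence, made from linolenic acid by lipoxygenases and later enzymes and sensed by the receptor COI1. The hormone removes JAZ repressors from MYC factors, and JAZ genes are in turn induced by jasmonate. In brm-1, 9 of 12 JAZ genes were at least 2-fold higher, against a background of 6.66% of all records, and 1 was at least 2-fold lower. Among them the largest ratio was that of JAZ8, with 6.34 FPKM in brm-1 against 0.0549 FPKM in WT, and JAZ7 followed with 27.6 FPKM in brm-1 against 0.310 FPKM in WT. JAZ5 had 15.9 FPKM in brm-1 against 0.991 FPKM in WT, and JAZ10, whose splice forms resist hormone-induced removal, had 40.0 FPKM in brm-1 against 3.35 FPKM in WT. JAZ9 and JAZ6 were the most abundant, JAZ9 with 167 FPKM in brm-1 against 59.4 FPKM in WT and JAZ6 with 146 FPKM in brm-1 against 68.2 FPKM in WT. JAZ11 had 13.3 FPKM in brm-1 against 12.5 FPKM in WT and JAZ12 had 87.9 FPKM in brm-1 against 70.3 FPKM in WT, both within 2-fold, and JAZ4 went the other way with 0.889 FPKM in brm-1 against 2.41 FPKM in WT.

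G-boxes are the letters bound by MYC factors and by other bHLH and bZIP proteins, and the 250 bases upstream of the start of both JAZ7 and JAZ8 held 1. They are shown 5′ to 3′ on the strand of the gene, read from the TAIR10.1 genome by the gene starts of NCBI RefSeq, with the G-box CACGTG in capitals.
JAZ7, chr2:14572780-14573029, plus strand: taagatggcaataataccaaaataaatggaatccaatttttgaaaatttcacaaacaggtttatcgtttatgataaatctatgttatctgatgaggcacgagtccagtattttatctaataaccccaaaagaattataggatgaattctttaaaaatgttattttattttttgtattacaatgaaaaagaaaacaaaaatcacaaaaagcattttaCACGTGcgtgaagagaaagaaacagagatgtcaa
JAZ8, chr1:10596102-10596351, plus strand: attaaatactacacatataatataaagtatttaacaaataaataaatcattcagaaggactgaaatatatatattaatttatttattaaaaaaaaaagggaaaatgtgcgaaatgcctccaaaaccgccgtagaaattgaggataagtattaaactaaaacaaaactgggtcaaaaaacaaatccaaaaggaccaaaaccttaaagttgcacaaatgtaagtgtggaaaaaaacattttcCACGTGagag
A G-box stood in the same window of 7.57% of 15700 compared genes of 1 locus, of 9.80% of those at least 2-fold higher in brm-1 and of 7.41% of those at least 2-fold lower. JAZ3 and JAZ2 (listed as TIFY10B) held it too, while JAZ5 and JAZ10 did not in this window. A match of letters is a description and does not show a site in use.

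The other parts of the pathway were less uniform. Of 28 signalling and response genes, the JAZ genes included, 14 were at least 2-fold higher and 2 lower, with a median log2 ratio of 0.95. MYC2, the main transcription factor of the pathway, had 49.3 FPKM in brm-1 against 13.1 FPKM in WT, while its relative MYC3 had 24.6 FPKM in brm-1 against 27.5 FPKM in WT and MYC4 had 6.89 FPKM in brm-1 against 14.2 FPKM in WT. The receptor gene COI1 had 18.5 FPKM in brm-1 against 22.5 FPKM in WT. Among the outputs, TAT3, a tyrosine aminotransferase, had 40.8 FPKM in brm-1 against 5.54 FPKM in WT, whereas the storage protein genes VSP1 and VSP2 were not higher, VSP1 having 3.70 FPKM in brm-1 against 6.39 FPKM in WT and VSP2 11.6 FPKM in brm-1 against 12.4 FPKM in WT. Of 20 genes of synthesis and removal, 11 were at least 2-fold higher and 1 lower, with a median of 1.25. LOX2, the chloroplast lipoxygenase that feeds the pathway in leaves, had 132 FPKM in brm-1 against 26.2 FPKM in WT, and OPR3, the peroxisomal reductase, had 64.5 FPKM in brm-1 against 20.7 FPKM in WT. Genes at the start of synthesis and at the removal of the hormone were thus both higher. CYP94C1, which oxidizes and so inactivates the active hormone, had 16.5 FPKM in brm-1 against 1.01 FPKM in WT. AOS, the allene oxide synthase, was within 2-fold at 66.6 FPKM in brm-1 against 62.0 FPKM in WT, and JMT, which makes the methyl ester, was lower at 0.861 FPKM in brm-1 against 3.74 FPKM in WT. On the branch shared with ethylene, ORA59, an ERF factor, had 30.3 FPKM in brm-1 against 4.01 FPKM in WT, and the defensin gene PDF1.2 had 15.7 FPKM in brm-1 against 11.7 FPKM in WT.

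**Figure D2:**
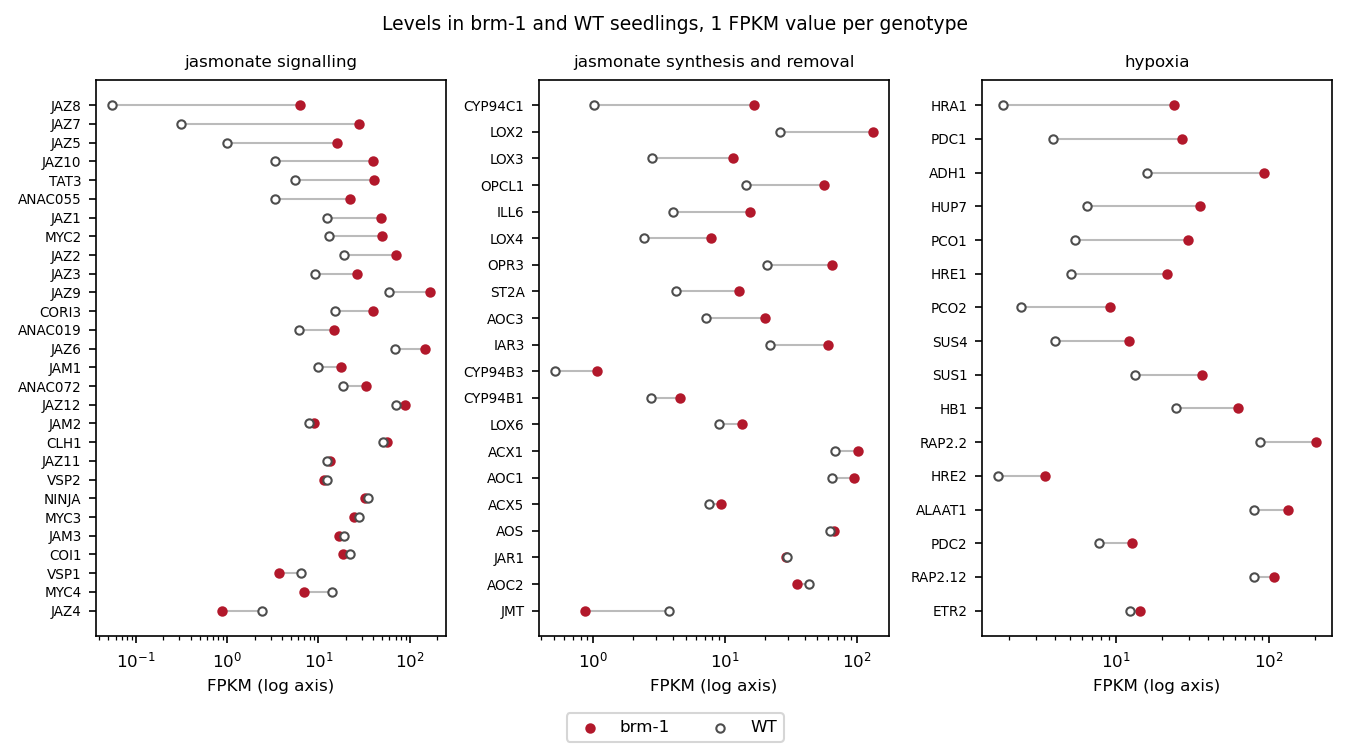
FPKM on a logarithmic axis in brm-1 (filled red circles) and WT (open circles) for the compared genes of jasmonate signalling, jasmonate synthesis and removal, and hypoxia, sorted by their ratio. All 16 hypoxia genes lie to the right in brm-1, most jasmonate genes do, and JMT, JAZ4 and MYC4 are among those to the left.

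Salicylic acid and pipecolic acid act in resistance to pathogens that feed on living tissue, through the receptors of the NPR family. Of 26 compared genes of this pair of pathways, 14 were at least 2-fold higher in brm-1 and 2 lower, with a median log2 ratio of 1.3. ICS1, the isochorismate synthase that makes most of the hormone, had 28.0 FPKM in brm-1 against 9.59 FPKM in WT. PBS3, which conjugates isochorismate in the next step, had 29.2 FPKM in brm-1 against 2.14 FPKM in WT, and EDS5, the transporter between them, had 18.1 FPKM in brm-1 against 6.32 FPKM in WT. SARD1, a transcription factor that switches these genes on, had 14.8 FPKM in brm-1 against 2.13 FPKM in WT. These 4 genes were each at least 2-fold higher. ALD1 and FMO1 make pipecolic acid and its hydroxylated form: ALD1 had 3.05 FPKM in brm-1 against 0.555 FPKM in WT, and FMO1 had 5.57 FPKM in brm-1 against 1.99 FPKM in WT. PR1, the usual marker of the response, had 293 FPKM in brm-1 against 53.8 FPKM in WT. The receptor gene NPR1 had 17.5 FPKM in brm-1 against 13.0 FPKM in WT, PR2 had 30.9 FPKM in brm-1 against 23.9 FPKM in WT and the second isochorismate synthase gene ICS2 had 1.39 FPKM in brm-1 against 3.76 FPKM in WT, of which only ICS2 was 2-fold apart.

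Genes of pattern-triggered immunity, by which surface receptors perceive microbial molecules, were at least 2-fold higher in 12 of 26 cases and 2-fold lower in none, with a median of 0.92. MPK11, a mitogen-activated kinase gene, had 10.9 FPKM in brm-1 against 1.64 FPKM in WT, and FRK1, a receptor kinase induced by flagellin, had 4.62 FPKM in brm-1 against 1.36 FPKM in WT. The flagellin receptor gene FLS2 (AT5G46330) was also at least 2-fold higher, with 10.5 FPKM in brm-1 against 3.5 FPKM in WT, while its coreceptor gene BAK1 had 23.5 FPKM in brm-1 against 18.1 FPKM in WT. Among 45 WRKY transcription factor genes, 15 were at least 2-fold higher and none was 2-fold lower. WRKY18 had 79.3 FPKM in brm-1 against 10.7 FPKM in WT, WRKY33, a regulator of camalexin synthesis, had 48.3 FPKM in brm-1 against 23.4 FPKM in WT, and WRKY70 had 98.6 FPKM in brm-1 against 64.3 FPKM in WT. Cysteine-rich receptor kinase genes were at least 2-fold higher in 7 of 19 cases, led by CRK39 with 3.28 FPKM in brm-1 against 0.0745 FPKM in WT, and 1 was 2-fold lower, CRK29 with 0.553 FPKM in brm-1 against 1.44 FPKM in WT. Receptor-like protein genes were at least 2-fold higher in 10 of 31 cases and lower in none, but at low levels: RLP42, for example, had 2.87 FPKM in brm-1 against 0.637 FPKM in WT. The groups share members, such as WRKY22, WRKY29, WRKY33, WRKY40 and WRKY53, and are not independent. In pattern-triggered immunity, 16 members had a locus that overlaps no other record, and 5 of them were at least 2-fold higher.

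Plant cells short of oxygen turn to fermentation under ERF factors of group VII, whose stability depends on oxygen. All 16 compared hypoxia genes were above WT in brm-1, 12 of them at least 2-fold, with a median log2 ratio of 1.55. The fermentation enzymes were among them, ADH1, the alcohol dehydrogenase, with 93.2 FPKM in brm-1 against 15.9 FPKM in WT and PDC1, a pyruvate decarboxylase, with 26.9 FPKM in brm-1 against 3.83 FPKM in WT. SUS1 and SUS4 encode sucrose synthases: SUS1 had 36.7 FPKM in brm-1 against 13.2 FPKM in WT, and SUS4 had 12.2 FPKM in brm-1 against 3.97 FPKM in WT. Each of these enzymes was at least 2-fold higher. HRA1 (AT3G10040), a trihelix factor that restrains the response, had 23.9 FPKM in brm-1 against 1.81 FPKM in WT in the higher of its 2 records. PCO1, a plant cysteine oxidase that marks group VII factors for decay, had 29.5 FPKM in brm-1 against 5.41 FPKM in WT, and PCO2 had 9.14 FPKM in brm-1 against 2.38 FPKM in WT. Factors that limit the response were thus higher together with its enzymes. Of the factors themselves, HRE1 had 21.5 FPKM in brm-1 against 5.03 FPKM in WT, RAP2.2 had 205 FPKM in brm-1 against 87.6 FPKM in WT and RAP2.12 had 109 FPKM in brm-1 against 80.5 FPKM in WT. Smaller differences were those of PDC2 with 12.7 FPKM in brm-1 against 7.78 FPKM in WT and of the ethylene receptor gene ETR2 with 14.3 FPKM in brm-1 against 12.4 FPKM in WT.

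Genes that rise when carbon runs short, in darkness or under the kinase SnRK1, were higher as well. Of 23 compared, 17 were at least 2-fold higher and none 2-fold lower, with a median of 1.45. Besides ASN1, DIN10, a raffinose synthase-like gene, had 301 FPKM in brm-1 against 84.0 FPKM in WT, and DIN1, also called SEN1, had 219 FPKM in brm-1 against 39.1 FPKM in WT. BCAT2 and MCCA act in the breakdown of branched-chain amino acids: BCAT2 had 10.7 FPKM in brm-1 against 1.53 FPKM in WT, and MCCA, a subunit of methylcrotonyl-CoA carboxylase, had 38.1 FPKM in brm-1 against 8.05 FPKM in WT. The gene of the kinase subunit KIN10 had 31.8 FPKM in brm-1 against 32.5 FPKM in WT. Glutamate dehydrogenase genes, which return amino nitrogen to ammonium, were higher, with GDH1 at 96.8 FPKM in brm-1 against 24.6 FPKM in WT and GDH2 at 349 FPKM in brm-1 against 108 FPKM in WT. Markers of the senescing leaf were at least 2-fold higher in 9 of 25 cases and lower in 2. SAG21 had 732 FPKM in brm-1 against 131 FPKM in WT and SAG13, a short-chain dehydrogenase gene, had 33.1 FPKM in brm-1 against 15.3 FPKM in WT, whereas the senescence regulator NAP had 20.4 FPKM in brm-1 against 48.4 FPKM in WT and the chlorophyll magnesium dechelatase SGR1 had 19.5 FPKM in brm-1 against 21.6 FPKM in WT.

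**Figure D3:**
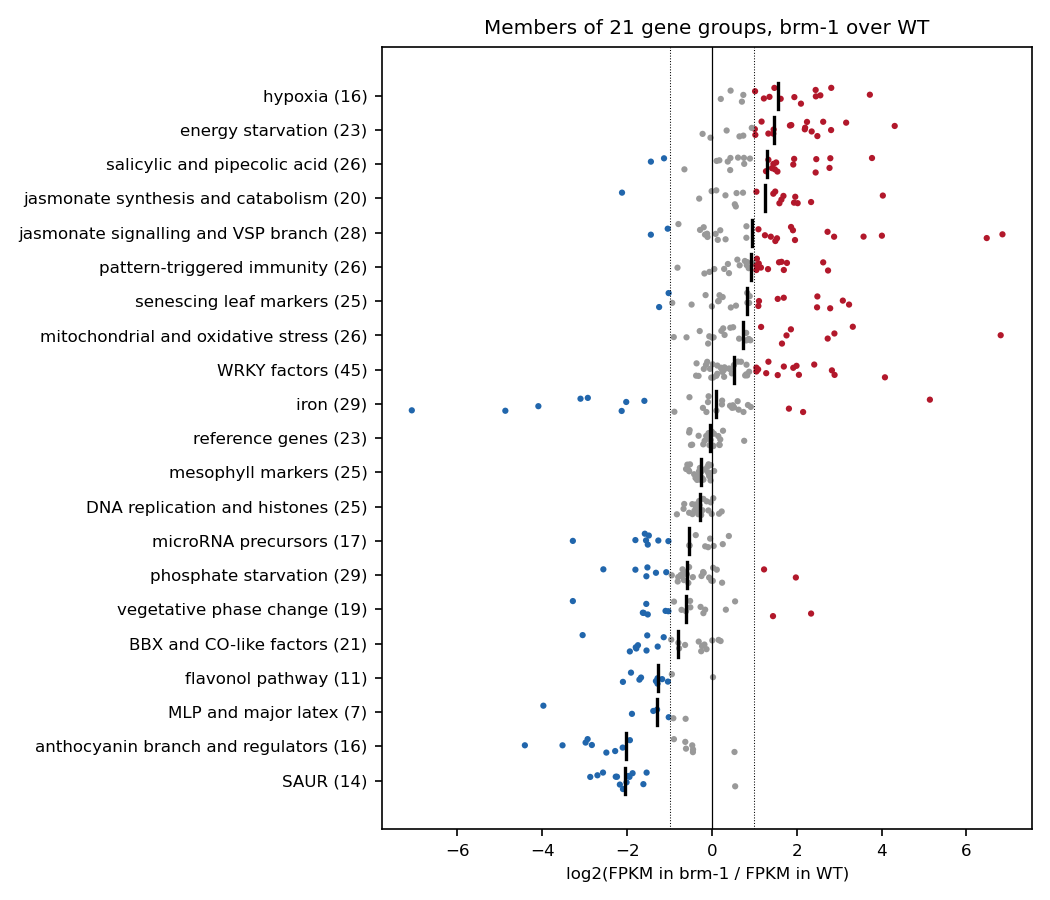
Each point is the log2 ratio of brm-1 over WT of 1 gene, in 21 groups with the number of compared genes in brackets; the black bar is the median, dotted lines mark 2-fold, and red and blue points lie beyond it. Hypoxia and energy starvation have the highest medians, 1.55 and 1.45, the SAUR and anthocyanin groups the lowest, -2.06 and -2.02, and the reference genes sit at -0.03. The anthocyanin median depends on low values and is -1.12 with a pseudocount of 1 FPKM.

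SAUR proteins promote cell expansion by keeping the plasma membrane proton pump active, and most of their genes are induced by auxin within minutes. Of 14 compared SAUR genes, 13 were at least 2-fold lower in brm-1, against a background of 5.62%, and none was 2-fold higher, with a median log2 ratio of -2.06. SAUR19 had 0.901 FPKM in brm-1 against 6.58 FPKM in WT, SAUR20 had 6.87 FPKM in brm-1 against 33.1 FPKM in WT and SAUR63 had 12.4 FPKM in brm-1 against 53.0 FPKM in WT. The exception was SAUR36 with 9.44 FPKM in brm-1 against 6.46 FPKM in WT. Counted instead by the annotation of their product, which takes in genes known by locus number alone, 28 of 59 SAUR-like genes were at least 2-fold lower and 3 higher, with a median of -0.75. The lowest ratio among them was that of AT1G29490, with 0.0333 FPKM in brm-1 against 1.6 FPKM in WT. AT4G34810 had 14.2 FPKM in brm-1 against 5.66 FPKM in WT, AT4G34750 had 22.3 FPKM in brm-1 against 9.63 FPKM in WT and AT1G72430 had 194 FPKM in brm-1 against 92.4 FPKM in WT, and these were the 3 higher ones. SAUR genes lie in tandem arrays of like sequence, so reads may be shared among members. Of 17 Aux/IAA genes, which encode short-lived repressors of the auxin response, 4 were at least 2-fold lower, beside 5.62% of all records. Among them, IAA29 had 3.03 FPKM in brm-1 against 13.7 FPKM in WT and IAA5 had 2.19 FPKM in brm-1 against 13.0 FPKM in WT. In auxin transport, 9 of 10 genes for PIN efflux carriers and the kinases PID, WAG1 and WAG2 were below WT and 4 at least 2-fold lower, among them PIN5, a carrier of the endoplasmic reticulum, with 0.446 FPKM in brm-1 against 4.36 FPKM in WT and WAG2 with 1.35 FPKM in brm-1 against 6.74 FPKM in WT.

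Enzymes and proteins that loosen the cell wall differed in both directions. Of 18 expansin genes, 5 were at least 2-fold lower and 1 higher, beside 5.62% and 6.66% of all records. EXPA15 had 9.44 FPKM in brm-1 against 38.6 FPKM in WT, EXPA8 had 38.8 FPKM in brm-1 against 94.1 FPKM in WT, and EXPA16 went the other way with 8.51 FPKM in brm-1 against 1.47 FPKM in WT. Of 27 XTH genes, whose enzymes cut and rejoin xyloglucan, 9 were at least 2-fold higher and 6 lower. XTH24 had 406 FPKM in brm-1 against 47.8 FPKM in WT in the higher of its 2 records and XTH25 had 13.1 FPKM in brm-1 against 0.291 FPKM in WT, whereas XTH31 had 70.6 FPKM in brm-1 against 301 FPKM in WT and XTH17 had 5.71 FPKM in brm-1 against 28.7 FPKM in WT. Of 22 brassinosteroid genes, 6 were at least 2-fold lower and 3 higher, beside 5.62% and 6.66% of all records. The higher ones were the synthesis gene CYP90D1 with 4.96 FPKM in brm-1 against 2.45 FPKM in WT, the inactivation gene SOB7 with 4.26 FPKM in brm-1 against 1.91 FPKM in WT and the receptor gene BRL1 with 2.88 FPKM in brm-1 against 1.23 FPKM in WT. Among the others, the growth-promoting helix-loop-helix gene PRE6 had 18.6 FPKM in brm-1 against 76.4 FPKM in WT, PRE1 had 1.54 FPKM in brm-1 against 4.40 FPKM in WT and PRE5 had 1.59 FPKM in brm-1 against 2.5 FPKM in WT, while the main receptor gene BRI1 had 41.3 FPKM in brm-1 against 43.6 FPKM in WT. GA20OX1, a gibberellin synthesis gene, had 1.77 FPKM in brm-1 against 5.05 FPKM in WT, and GA2OX2, which inactivates gibberellin, had 9.38 FPKM in brm-1 against 1.53 FPKM in WT.

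Flavonoids are made from phenylpropanoids by chalcone synthase and later enzymes, and a branch that starts at dihydroflavonol reductase leads to the purple anthocyanins. In brm-1, 9 of 16 genes of the anthocyanin branch were at least 2-fold lower and none higher, with a median log2 ratio of -2.02. Several of these genes were low, and with a pseudocount of 1 FPKM the median was -1.12. DFR, the reductase, had 1.84 FPKM in brm-1 against 21.2 FPKM in WT, and LDOX, the next enzyme, had 3.09 FPKM in brm-1 against 22.0 FPKM in WT. The acyltransferase gene AT5MAT had 0.105 FPKM in brm-1 against 2.23 FPKM in WT and the glucosyltransferase gene UGT75C1 had 0.804 FPKM in brm-1 against 6.34 FPKM in WT. The MYB activators of the branch were lower too, PAP1 with 0.987 FPKM in brm-1 against 7.52 FPKM in WT and PAP2 with 1.38 FPKM in brm-1 against 5.28 FPKM in WT, as was their bHLH partner TT8 with 0.399 FPKM in brm-1 against 1.94 FPKM in WT. TTG1, the WD40 protein of the same complex, had 21.4 FPKM in brm-1 against 29.2 FPKM in WT, and the repressor MYBL2 had 51.2 FPKM in brm-1 against 79.1 FPKM in WT, both within 2-fold. Of 11 flavonol genes, 9 were at least 2-fold lower, with a median of -1.28. FLS1, the flavonol synthase, had 13.4 FPKM in brm-1 against 57.3 FPKM in WT and F3H had 25.7 FPKM in brm-1 against 81.9 FPKM in WT, while TT4, the chalcone synthase, had 185 FPKM in brm-1 against 357 FPKM in WT and MYB111, an activator, had 2.84 FPKM in brm-1 against 2.79 FPKM in WT.

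Of these genes, DFR, UF3GT, PAP2 and SCPL10 in the anthocyanin branch and TT4, F3H, CHIL and MYB12 in the flavonol pathway held a G-box within 250 bases upstream of the RefSeq start, that is 4 of 16 and 4 of 11 genes, beside 7.57% of all. DFR and TT4, the reductase with a large ratio and the chalcone synthase with a small one, are shown 5′ to 3′ with the G-box in capitals (TAIR10.1).
DFR, chr5:17166033-17166282, minus strand: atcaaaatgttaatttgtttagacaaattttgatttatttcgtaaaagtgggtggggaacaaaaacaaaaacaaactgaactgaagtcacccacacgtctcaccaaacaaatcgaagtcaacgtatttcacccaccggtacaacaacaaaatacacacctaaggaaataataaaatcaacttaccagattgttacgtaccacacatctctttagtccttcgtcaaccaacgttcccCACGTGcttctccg
TT4, chr5:4488226-4488475, plus strand: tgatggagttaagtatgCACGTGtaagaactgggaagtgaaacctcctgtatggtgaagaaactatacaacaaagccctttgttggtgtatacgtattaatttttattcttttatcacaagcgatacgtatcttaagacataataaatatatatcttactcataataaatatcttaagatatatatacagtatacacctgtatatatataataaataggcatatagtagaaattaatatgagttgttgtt

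B-box zinc finger proteins act with HY5 in the light control of these pathways. Of 21 B-box and CONSTANS-like genes, 9 were at least 2-fold lower and none higher. BBX30 had 1.2 FPKM in brm-1 against 9.94 FPKM in WT, BBX16 had 25.8 FPKM in brm-1 against 89.7 FPKM in WT and COL2 had 30.8 FPKM in brm-1 against 118 FPKM in WT, while BBX21, an activator with HY5, had 49.6 FPKM in brm-1 against 44.5 FPKM in WT. HY5 itself had 16.2 FPKM in brm-1 against 20.4 FPKM in WT. Photoreceptor genes lay within 2-fold, PHYA with 54.4 FPKM in brm-1 against 30.1 FPKM in WT, PHYB with 20.7 FPKM in brm-1 against 27.4 FPKM in WT and CRY1 with 92.5 FPKM in brm-1 against 89.1 FPKM in WT. In the circadian clock, 4 of 14 compared genes were at least 2-fold lower and 1 was higher, beside 5.62% and 6.66% of all records. The higher count is near that background. Of the 7 clock genes on a locus free of overlap, 4 were at least 2-fold lower and none higher. The morning genes CCA1 and PRR9 were lower, CCA1 with 50.6 FPKM in brm-1 against 107 FPKM in WT and PRR9 with 5.24 FPKM in brm-1 against 16.2 FPKM in WT, and the evening gene TOC1 was higher, with 12.1 FPKM in brm-1 against 4.99 FPKM in WT. The sources used here do not give the hour of harvest, and a shift in hour between the genotypes cannot be told apart from a difference at a fixed hour.

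**Figure D4:**
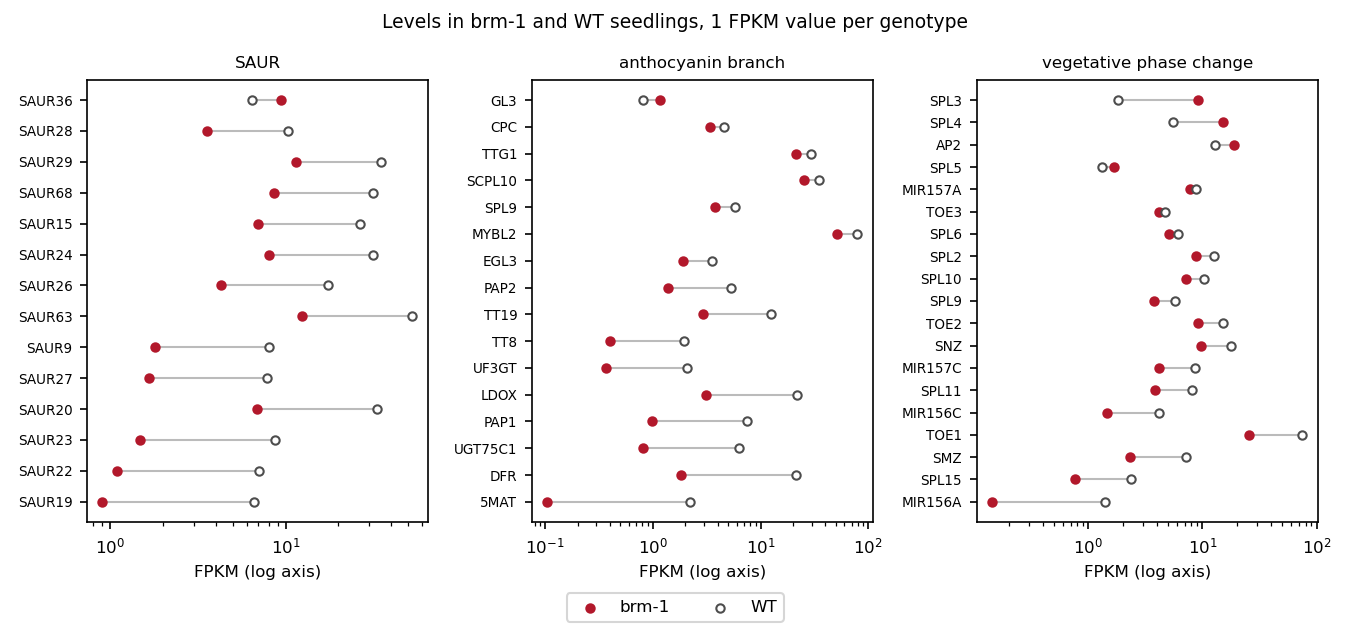
FPKM on a logarithmic axis in brm-1 (filled red circles) and WT (open circles) for the compared SAUR genes, the anthocyanin branch and the genes of vegetative phase change, sorted by their ratio. All but SAUR36 of the SAUR genes and all but GL3 of the anthocyanin branch lie to the left in brm-1, while SPL3 and SPL4 lie to the right.

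MicroRNAs are cut from hairpin precursors and pair with target transcripts that are then cleaved or left untranslated. Of 17 compared precursors, 8 were at least 2-fold lower in brm-1 and none higher. These were MIR156a with 0.144 FPKM in brm-1 against 1.4 FPKM in WT, MIR827 with 0.297 FPKM in brm-1 against 1.04 FPKM in WT, MIR398b with 5.32 FPKM in brm-1 against 15.9 FPKM in WT, MIR167a with 1.33 FPKM in brm-1 against 3.89 FPKM in WT, MIR156c with 1.47 FPKM in brm-1 against 4.2 FPKM in WT, MIR171b with 0.444 FPKM in brm-1 against 1.25 FPKM in WT, MIR398c with 4.76 FPKM in brm-1 against 11.4 FPKM in WT and MIR157c with 4.2 FPKM in brm-1 against 8.55 FPKM in WT. Precursors are short and mostly low, and 7 of the 17 lie on a locus that overlaps another record, MIR398b and MIR398c among the lower ones. The precursor level is not that of the mature microRNA, which was not measured. The mature sequences that RefSeq places in the lower precursors are shown 5′ to 3′ with bases 2 to 8, the seed, in capitals (TAIR10.1).
miR156a-5p and miR156c-5p, chr2:10676534-10676553 and chr4:15415491-15415510: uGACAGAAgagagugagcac
miR157c-5p, chr3:6244673-6244693: uUGACAGAagauagagagcac
miR398b-3p and miR398c-3p, chr5:4691107-4691127 and chr5:4694778-4694798: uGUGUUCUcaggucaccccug
miR167a-5p, chr3:8108090-8108110: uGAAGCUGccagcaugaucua
miR171b-3p, chr1:3961367-3961387: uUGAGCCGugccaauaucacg
miR827, chr3:22122811-22122831: uUAGAUGAccaucaacaaacu
MIR156a and MIR156c give the same mature sequence, as do MIR398b and MIR398c, and the seed of miR157c-5p is that of miR156 shifted by 1 base.

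The switch from juvenile to adult leaves is timed by a fall in miR156, which holds down SPL transcription factors in young seedlings. All 4 compared precursors of miR156 and miR157 were below WT in brm-1, 3 of them at least 2-fold. Of 9 SPL genes in this group, 2 were at least 2-fold higher, SPL3 with 9.18 FPKM in brm-1 against 1.82 FPKM in WT and SPL4 with 15 FPKM in brm-1 against 5.54 FPKM in WT, and 2 were lower, SPL15 with 0.764 FPKM in brm-1 against 2.36 FPKM in WT and SPL11 with 3.81 FPKM in brm-1 against 8.12 FPKM in WT. SPL9, which promotes adult leaf traits, had 3.78 FPKM in brm-1 against 5.78 FPKM in WT. The best match to the complement of miR156a-5p in the spliced RefSeq transcript of each of these 4 genes is shown 5′ to 3′ as DNA, with mismatched bases in capitals (TAIR10.1).
SPL3, chr2:14305878-14305897: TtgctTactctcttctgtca
SPL4, chr1:19807090-19807109: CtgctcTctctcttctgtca
SPL11, chr1:9503618-9503637: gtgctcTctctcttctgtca
SPL15, chr3:21444834-21444853: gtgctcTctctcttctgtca
SPL11 and SPL15 have 1 mismatch and share their site with SPL2, SPL9 and SPL10, and SPL3 and SPL4 have 2. Of the AP2-like factors that miR172 restrains, 2 of 6 were at least 2-fold lower, TOE1 with 25.6 FPKM in brm-1 against 74.8 FPKM in WT and SMZ with 2.33 FPKM in brm-1 against 7.12 FPKM in WT. CSD1 and CSD2 encode copper/zinc superoxide dismutases and are known targets of miR398. CSD1 had 93.6 FPKM in brm-1 against 29.8 FPKM in WT, and CSD2 had 102 FPKM in brm-1 against 30.1 FPKM in WT. Both were at least 2-fold higher, and the 2 compared MIR398 precursors were lower. CSD1 and both precursors lie on loci that overlap other records. Mature miR398 was not measured, and a link between these values was not tested.

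Flowering genes held some of the large single differences. FLC, the repressor silenced by cold, had 5.33 FPKM in brm-1 against 1.58 FPKM in WT, and SVP, its partner, had 34.0 FPKM in brm-1 against 57.8 FPKM in WT. AGL24, which promotes flowering, had 4.61 FPKM in brm-1 against 27.4 FPKM in WT, and SOC1, which integrates the pathways, had 34.3 FPKM in brm-1 against 17.8 FPKM in WT. TFL1, which keeps the shoot indeterminate, had 0.0716 FPKM in brm-1 against 1.82 FPKM in WT, and FT, the florigen, had 1.51 FPKM in brm-1 against 2.75 FPKM in WT. Regulators that delay and that promote flowering thus differed in both directions. SEP3, a floral organ identity gene, had 23.4 FPKM in brm-1 against 2.82 FPKM in WT, FUL had 2.63 FPKM in brm-1 against 0.680 FPKM in WT and the petal and stamen identity gene PI had 2.78 FPKM in brm-1 against 0.636 FPKM in WT. The other flower genes were mostly unmeasured: of 16 flower markers, 4 were compared, and AG and AP3 were not among them. Of the CYCLING DOF genes, which repress the photoperiod pathway, CDF1 had 10.2 FPKM in brm-1 against 21.4 FPKM in WT and CDF3 had 19.9 FPKM in brm-1 against 50.0 FPKM in WT.

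Of 29 iron genes, 8 were at least 2-fold lower and 3 higher, beside 5.62% and 6.66% of all records. IRT1, the root iron transporter, had 1.2 FPKM in brm-1 against 10.3 FPKM in WT, and FRO2, the reductase that supplies it, had 0.288 FPKM in brm-1 against 2.19 FPKM in WT. The bHLH factors that switch on uptake under iron shortage were at the lowest levels, bHLH38 with 0.0224 FPKM in brm-1 against 3.02 FPKM in WT, bHLH39 with 0.166 FPKM in brm-1 against 2.83 FPKM in WT and BHLH101 with 0.0911 FPKM in brm-1 against 2.67 FPKM in WT, and BHLH100 was listed at 0 in brm-1 as given above. These close relatives were all far lower than in WT. FIT, their partner, was within 2-fold at 5.07 FPKM in brm-1 against 3.03 FPKM in WT. The 3 higher genes were the vacuolar iron transporter-like gene VTL5 with 48.7 FPKM in brm-1 against 11.0 FPKM in WT, the nicotianamine-chelate transporter gene YSL3 with 81.2 FPKM in brm-1 against 23.1 FPKM in WT and the nicotianamine synthase gene NAS2 with 3.31 FPKM in brm-1 against 0.0941 FPKM in WT. Relatives of the higher ones were among the lower, NAS4 with 5.09 FPKM in brm-1 against 20.6 FPKM in WT and YSL2 with 9.34 FPKM in brm-1 against 40.8 FPKM in WT. The remaining lower gene was IRT2, a second transporter gene, with 1.31 FPKM in brm-1 against 3.96 FPKM in WT, while the ferritin gene FER1 was within 2-fold at 468 FPKM in brm-1 against 259.9 FPKM in WT. Of 29 phosphate starvation genes, 6 were at least 2-fold lower and 2 higher, beside 5.62% and 6.66% of all records, with a median of -0.59. The higher count is near that background. RNS1, a ribonuclease that frees phosphate from RNA, had 17.9 FPKM in brm-1 against 4.54 FPKM in WT and stood against the majority. Outside that group, MIPS1, which makes inositol phosphate, had 77.5 FPKM in brm-1 against 428 FPKM in WT. It belongs to 25 compared genes of sugar transport and inositol, of which 8 were at least 2-fold higher and 3 lower, with a median of 0.75.

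The largest differences in FPKM itself belonged to other genes than the largest ratios. LHB1B2, a light-harvesting chlorophyll protein gene, had 6608 FPKM in brm-1 against 9171 FPKM in WT, and its neighbour LHB1B1 had 1474 FPKM in brm-1 against 687 FPKM in WT. Near-identical copies such as these can share reads, so the split between them is uncertain. The 15 largest losses were all less than 2-fold apart. They included CAB3, another light-harvesting protein gene, with 3738 FPKM in brm-1 against 5347 FPKM in WT and RCA, the Rubisco activase, with 5272 FPKM in brm-1 against 6718 FPKM in WT, and also LP1, a lipid transfer protein gene, with 1396 FPKM in brm-1 against 2189 FPKM in WT. Among the gains, MT2B, a metallothionein, had 5835 FPKM in brm-1 against 4459.7 FPKM in WT, FSD1, an iron superoxide dismutase, had 2178 FPKM in brm-1 against 1540.2 FPKM in WT, and the vacuolar water channel DELTA-TIP had 974 FPKM in brm-1 against 432 FPKM in WT. ERD15 had 743 FPKM in brm-1 against 368 FPKM in WT and HR4, a homolog of the resistance gene RPW8, had 398 FPKM in brm-1 against 71.9 FPKM in WT.

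Defining markers of leaf and root cells were present in both genotypes, in accordance with the seedling label. Of all 17942 compared records, 9033 were below WT by any amount, and the counts of markers below WT stand beside that share. Mesophyll markers were below WT in 24 of 25 cases with a median of -0.25, and their FPKM summed to 102177 in brm-1 and 119271 in WT. RBCS1A, the Rubisco small subunit, had 16426 FPKM in brm-1 against 16716 FPKM in WT, and RBCS2B had 1718 FPKM in brm-1 against 2622 FPKM in WT. Guard cell markers were below WT in 16 of 19 cases, 3 of them at least 2-fold, and summed to 987 FPKM in brm-1 and 1241 FPKM in WT. The guard cell sum was thus lower by less than the 2-fold threshold. MYB60, a guard cell factor, had 8.05 FPKM in brm-1 against 24.7 FPKM in WT, and FAMA, which ends the division of their precursors, had 10.2 FPKM in brm-1 against 20.3 FPKM in WT. Root hair markers were below WT in 15 of 20 cases and summed to 185 FPKM in brm-1 and 263 FPKM in WT. Endodermis markers, of another root cell type, were below WT in 11 of 16 cases but summed to 141 FPKM in brm-1 and 100.9 FPKM in WT. Phloem markers summed to 514 FPKM in brm-1 and 367 FPKM in WT, and senescing leaf markers, which stand beside the starvation genes, to 2936 FPKM in brm-1 and 1233 FPKM in WT. Of 18 pollen markers 1 was compared. The part of cell composition in the differences was not tested.

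Housekeeping genes lay near equal values, but FPKM are scaled to the fragments of each library. A general change in the amount of RNA would therefore not show in these values. None of 23 reference genes was 2-fold apart, and their median log2 ratio was -0.03. UBQ10 had 1096 FPKM in brm-1 against 1119 FPKM in WT and ACT2 had 418 FPKM in brm-1 against 411 FPKM in WT, while ACT11 was the highest by ratio with 33.5 FPKM in brm-1 against 19.8 FPKM in WT. Genes of DNA replication and histones, also with none 2-fold apart, were below WT in 22 of 25 cases with a median of -0.29, and all 6 MCM helicase genes were below WT, MCM6 having 5.26 FPKM in brm-1 against 8.27 FPKM in WT. None of 32 cyclin and cyclin-dependent kinase genes was 2-fold apart, with a median of -0.01.

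Records at least 2-fold apart were more often of low level, short and of few exons. The share at least 2-fold higher was 11.2% among records of a geometric mean of 1 to under 5 FPKM and 2.65% at 100 FPKM or more, and the share at least 2-fold lower was 8.98% and 2.14% in the same classes. By the length of the locus, 15.4% of records under 1 kb were at least 2-fold higher and 15.3% lower, and of those of 4 kb or more 4.1% were higher and 2.92% lower. Among genes of 1 exon 11.0% were higher and 12.2% lower, and among genes of 10 or more exons 3.18% were higher and 2.11% lower. FPKM of low and short genes rest on fewer fragments, and the part of counting error in these shares was not tested. The shares differed little between chromosomes, from 6.28% on chromosome 5 to 7.29% on chromosome 1 for higher records and from 5.02% on chromosome 2 to 6.47% on chromosome 4 for lower ones.

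**Figure D5:**
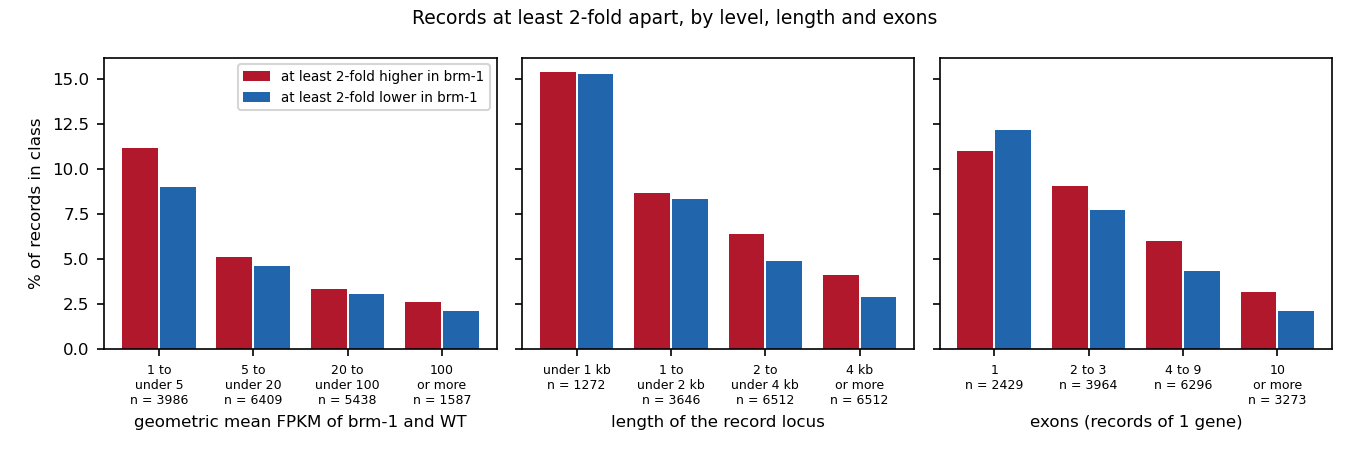
Bars give the percentage of records at least 2-fold higher (red) and at least 2-fold lower (blue) in brm-1 than in WT, by class of the geometric mean FPKM of both genotypes, of locus length and of exon number, with the number of records under each class. Records of a geometric mean under 1 FPKM are left out, because the minimum of 1 FPKM in the higher genotype sets their difference. Both shares are smaller in each class of higher level, greater length or more exons.

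Records 2-fold apart in the same direction stood side by side in somewhat larger shares than records at large. Among records of 1 gene on a locus free of overlap, 21.8% of those at least 2-fold higher had an adjacent record at least 2-fold higher, beside 13.7% of all such records, and 21% of those at least 2-fold lower had a lower neighbour, beside 12.5% of all. The longest run of higher records had 6 genes, AT5G22520 to WRKY38 on chromosome 5. Runs of 5 lower records covered AT1G29430 to AT1G29465 on chromosome 1, which holds SAUR63, and AT5G47950 to THAS1 on chromosome 5. The second of these is the thalianol gene cluster, in which THAS1 makes the triterpene thalianol, and THAS1 had 1.27 FPKM in brm-1 against 4.78 FPKM in WT, CYP708A2 had 3.18 FPKM in brm-1 against 8.59 FPKM in WT and CYP705A5 had 2.75 FPKM in brm-1 against 10.9 FPKM in WT. Shorter runs of lower records were SAUR22, SAUR23 and SAUR24 on chromosome 5, SAUR26, SAUR27 and SAUR29 on chromosome 3, and PRR9, CCA1 and PPa3 on chromosome 2.

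Of 19 short motifs searched on both strands in the 250 bases upstream of 15700 genes, the site II element TGGGCC, found in front of many housekeeping genes, differed most in percentage points. It stood in 16.6% of all windows, in 8.12% of those of genes at least 2-fold higher and in 7.73% of those of genes at least 2-fold lower. The heat shock element core GAANNTTC stood in 9.28% of all windows, in 14.5% of higher and in 7.41% of lower genes. The W-box core TTGAC, bound by WRKY factors, stood in 45.2% of all, in 52.2% of higher and in 44.0% of lower genes. The TATA box TATAAA stood in 47.6% of all, 51.0% of higher and 50.0% of lower genes. The other motifs searched were the abscisic acid response core with a flank in the form ACGTGTC or in the form ACGTGGC, the GCC-box GCCGCC, the DRE core CCGAC, the evening element AAAATATCT, the telo-box AAACCCTA, the TCP site GGNCCC, the phosphate element GNATATNC, the AC elements ACCTACC for the first and ACCAACC for the second, the flavonoid MYB site ACCTAAC, the repeat GAGAGAGA, the CAAT box CCAAT, the E2F site TTTCCCGC and the G-box given above. Some of these overlap in letters, such as the G-box with both abscisic acid forms and the site II element with the TCP site. They are counts of letters and not of sites in use.

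The bromodomain mutants share the WT value of these comparisons, so their values are set beside those of brm-1 without a count of agreement, for 6 genes picked after their values were seen. JAZ8 stood at 6.34 FPKM in brm-1, 0.565 FPKM in brd1,2,13, 4.96 FPKM in the combined mutant and 0.0549 FPKM in WT. ASN1 stood at 169 FPKM in brm-1, 24.4 FPKM in brd1,2,13, 211 FPKM in the combined mutant and 8.54 FPKM in WT. AT3G02480 ran another course, with 70.9 FPKM in brm-1, 102 FPKM in brd1,2,13, 40.4 FPKM in the combined mutant and 1.83 FPKM in WT. The higher genes thus differed in whether brd1,2,13 was also far above WT. Among the lower genes, IRT1 stood at 1.2 FPKM in brm-1, 1.42 FPKM in brd1,2,13, 1.52 FPKM in the combined mutant and 10.3 FPKM in WT. DFR stood at 1.84 FPKM in brm-1, 11.8 FPKM in brd1,2,13, 2.48 FPKM in the combined mutant and 21.2 FPKM in WT. AT3G57157, on a locus that overlaps another record, was lower than WT in brm-1 and not in the others, with 0.575 FPKM in brm-1, 39 FPKM in brd1,2,13, 11.9 FPKM in the combined mutant and 11.5 FPKM in WT.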

How the data were processed

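RNA-seq of 12 libraries of Arabidopsis seedlings, 3 for each of 4 genotypes, was deposited as a Cuffdiff gene test table with 6 pairs of genotypes. Per the submitters' processing notes, the authors used TopHat, Cufflinks 2.1.1 and Cuffdiff 2.1.1 with the TAIR10 build to make the deposited FPKM values, 1 for each genotype over its 3 libraries. The version of TopHat, the library kit and the use of strand in counting are unknown from the material at hand, so an overlapping or antisense gene cannot always be separated from its partner. The columns of the authors' own comparison hold a log2 fold change, a test statistic, a p-value and a q-value, and none of these was used. Since the table gives neither counts nor values of single libraries, no depth, interval or replicate error could be computed and no test was run here, and 2-fold marks a size and not significance.

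Records of the pair WT and brm-1 with status OK were taken. A record was compared when both values were above 0 and the higher was at least 1 FPKM, with no pseudocount, and the log2 ratio is brm-1 over WT. Records at 0 in 1 genotype were given as values without a fold. Where a gene had several records, the one with the larger FPKM was used in the gene lists. The genes named are the mutated gene, the bromodomain genes and their neighbours, the 25 largest and 25 lowest ratios among 1-gene records of at least 5 FPKM in the higher genotype, the 15 largest gains and losses in FPKM, records listed at 0 in 1 genotype, and in each gene list up to 6 members with the largest ratios either way, those against the rest and any needed to account for the list. From this pool the text gives a selection. Of 1653 entries in 63 gene lists, 1605 were matched to a locus, and 56 families were taken by symbol or product annotation. The members and the lists were chosen with earlier results of these data known, and the product-based SAUR family was added after the values were seen.

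Upstream windows of 250 bases, microRNAs and target sites came from NCBI RefSeq on TAIR10.1, whose chromosome names were matched to those of the table, and 15962 of 15986 compared 1-gene records were found there. The 2-fold rule was run on simulated data, in which values were changed by known folds without noise. That run checks the arithmetic of the cut and says nothing of its error rate. Alternatives were a stricter minimum of 5 FPKM, no minimum, pseudocounts of 0.1 and 1 FPKM, rescaling to equal totals, centring on the median, records of 1 gene, records free of overlap, and any status. The medians of lists without overlapping members were added after seeing the data. Python 3.11.15, pandas 2.3.3, NumPy 2.4.6 and Matplotlib 3.10.9 were used.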

Additional observations from a re-analysis of the deposited data

Results flagged for a closer look

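The 12683 records with the status NOTEST are not used in the comparisons above. Of these, 8 reached at least 5 FPKM in 1 genotype and were at least 2-fold apart or listed at 0 in the other. Listed at 0 in WT were 4 of them. These were MIR159a, a microRNA precursor with 7.98 FPKM in brm-1, and 3 records that the annotation leaves without a function, AT2G35743 with 45.8 FPKM in brm-1, AT4G26055 with 12.5 FPKM in brm-1 and AT5G04238 with 10.4 FPKM in brm-1. In the reverse direction 3 were listed at 0 in brm-1, the microRNA precursor MIR159b with 16.1 FPKM in WT, the precursor MIR2111a with 58.3 FPKM in WT and AT3G30730 with 6.04 FPKM in WT. The remaining record joined RSU1 and AT3G48131 and was above 0 in every genotype. It had 0.507 FPKM in brm-1 against 27.2 FPKM in WT, with 0.412 FPKM in brd1,2,13 and 2.3 FPKM in the combined mutant. MIR159a and MIR159b give closely related microRNAs and lay in opposite directions. In brd1,2,13 MIR159a stood at 19.8 FPKM and MIR159b at 28.4 FPKM, and both were listed at 0 in the combined mutant. MIR159a thus differed between the genotypes that carry brm-1. AT2G35743, AT4G26055, AT5G04238, MIR2111a and AT3G30730 were listed at 0 in every genotype but the 1 given. Values above 0 in only 1 genotype cannot be read as differences between brm-1 and WT. Each locus of these precursors is shorter than 1 kb, and the status means that Cuffdiff ran no test on the record.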

How the results depend on the processing

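A minimum of 5 FPKM in the higher genotype left 14105 records, beside 17942 in the main comparison. Of these, 756 were at least 2-fold higher in brm-1 and 634 lower. With a pseudocount of 1 FPKM, 845 of 17965 records were at least 2-fold higher and 650 lower. Both settings act on low values by construction. With no minimum, a pseudocount of 0.1, equal totals, median centring, 1-gene records, no overlap or any status, both counts lay within 1.5 times 1195 and 1008. The share of higher records among those 2-fold apart ran from 52.6% to 56.5%, beside 54.2% as reported. Equal totals shifted log2 ratios by 0.03. Of 604 named values past 2-fold, 583 stayed past it with a pseudocount of 0.1 FPKM, 470 with 1 FPKM, 586 at equal totals and 602 after centring. A change of sign was not possible for these values. An equal pseudocount keeps the order of the genotypes, and the shifts from rescaling and centring were far under 2-fold. The median log2 ratio of the anthocyanin branch was -1.12 with a pseudocount of 1 FPKM, and the microRNA precursor median was -1.26 over the 10 that overlap no other record. No paired analysis was possible because the table gives 1 value per genotype, and for the same reason no library could be left out in turn. Depth is unknown, so small differences of low genes cannot be read.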
